A study of Mus musculus with 2 samples.

Results

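The ITM2 family consists of 3 mouse genes, Itm2a, Itm2b and Itm2c, and its expression was described here in PPARg-deficient and PPARg-floxed bone marrow mesenchymal stem/progenitor cells. The members were chosen by name as a gene family, with their values in this comparison already known, so the levels given below are a description and carry no test. All 3 were found among 19268 gene symbols that could be assigned to the loci of the files. RNA of cultured marrow stromal cells from CD-1 mice of 3 months of age was sequenced on a HiSeq2000, in 1 library of the PPAR-flox genotype and 1 library of the PPAR KO genotype, 2 libraries in all. Both cultures were grown in DMEM with serum. The labels do not name a Cre driver, the way Pparg was deleted, or the number of animals behind a library, and they do not state whether the cells are 1 clone. No difference below has a replicate check.

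ITM2 proteins are small type II membrane proteins with a single membrane span and, outside it, a BRICHOS domain, a fold found in several proproteins that are prone to form amyloid. Itm2b encodes BRI2, which is made in most tissues, is cut by proprotein convertases such as furin, by ADAM10 and by the intramembrane protease SPPL2B, and binds the amyloid precursor protein. Mutations of its human counterpart cause familial British and Danish dementia. Itm2c encodes BRI3, a relative best known from brain that also binds the amyloid precursor protein. Itm2a encodes a member first described in cells that form cartilage and bone, and it is also known from activated thymocytes and from developing muscle. PPARg, the nuclear receptor encoded by Pparg, directs fat cell formation from marrow stromal cells.

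The members share an exon plan. Each locus in the files held 1 transcript of 6 exons. In all 3 genes the fourth exon was 111 nt long and the fifth was 151 nt long. The second exon measured 132 nt in Itm2a, 129 nt in Itm2b and 141 nt in Itm2c, and the third measured 198, 207 and 189 nt in the same order. The first intron was the longest of each gene, at 3407 nt in Itm2a, 16582 nt in Itm2b and 8220 nt in Itm2c. In the GENCODE M21 annotation the matched transcripts encode 263, 266 and 269 codons, and the fourth exon is coding throughout. That exon is shown because it has the same length in every member and lets a reader see how far apart the related RNAs are. The sequences are those of GENCODE M21, 5′ to 3′ on the coding strand, with capitals at the positions where all 3 members hold the same base.
Itm2a: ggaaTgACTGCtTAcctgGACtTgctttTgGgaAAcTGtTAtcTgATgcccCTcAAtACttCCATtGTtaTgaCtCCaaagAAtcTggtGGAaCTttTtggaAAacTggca
Itm2b: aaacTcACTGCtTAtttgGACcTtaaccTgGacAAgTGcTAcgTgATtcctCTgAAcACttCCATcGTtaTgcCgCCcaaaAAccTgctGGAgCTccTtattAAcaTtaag
Itm2c: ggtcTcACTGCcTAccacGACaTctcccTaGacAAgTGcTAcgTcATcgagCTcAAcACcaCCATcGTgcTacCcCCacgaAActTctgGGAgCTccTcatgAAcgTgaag
Of the 111 positions 51 were identical in all 3 members, which is 45.9%. Itm2b and Itm2c were the closest pair, at 67.6% identity, against 63.1% for Itm2a and Itm2b and 52.3% for Itm2a and Itm2c. The exon lies on chromosome X from 104594110 to 104594220 in Itm2a, on chromosome 14 from 73765559 to 73765669 in Itm2b and on chromosome 1 from 87802997 to 87803107 in Itm2c, in the mm9 coordinates of the files. Over the whole transcripts, the longest run of identical bases shared by 2 members was 14 nt. No stretch of 50 nt of any member occurred in a transcript of another gene in GENCODE M21, on either strand. No other locus of the files overlapped a member.

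**Figure D1:**
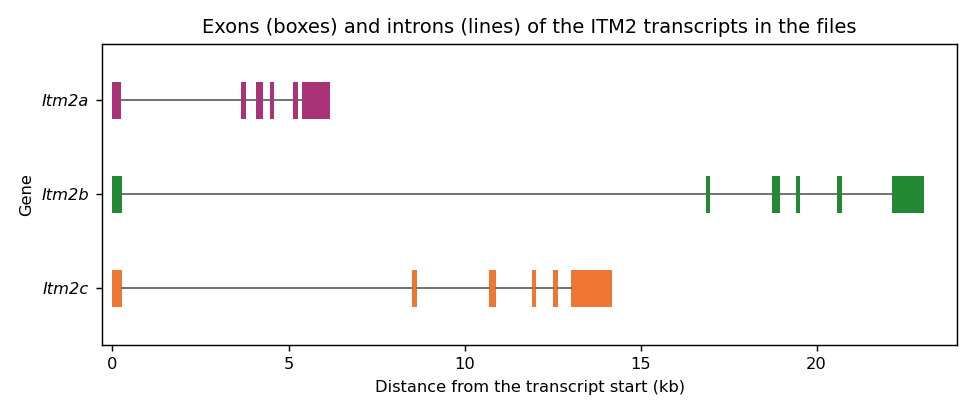
Exons (boxes) and introns (lines) of the single transcript of each ITM2 gene, drawn to scale against the distance from the transcript start in kb. All 3 have 6 exons and a long first intron, and Itm2b spans 23040 nt against 14189 nt for Itm2c and 6166 nt for Itm2a.

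Values are FPKM, mapped fragments divided by transcript length and by the fragment total of the library, so levels of different genes can be set side by side. The length used was shorter than the transcript, by an implied 203 nt in the floxed and 206 nt in the deficient library. The deposited lower and upper bounds describe the estimate within 1 library. For the ITM2 genes the bounds equal FPKM plus and minus 2 standard errors of a fragment count. The fragment number behind a value could therefore be computed. For the 6 values of the ITM2 genes it came out within 0.001 of a whole number. In the same way the libraries were found to be scaled to 9060268 fragments for the floxed and 9368363 for the deficient cells. A log2 fold is given for the deficient over the floxed library, computed from FPKM plus a pseudocount of 1. The median of 10765 kept loci, which reached 1 FPKM in either library and had a transcript of at least 300 nt, was itself higher by 0.86 on this scale (1.81-fold). Relative folds are given after subtraction of that median.

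Pparg, the targeted gene, measured 6.86 FPKM in floxed and 1.39 FPKM in deficient cells, a relative log2 fold of -2.58 (-1.72 as deposited). Bounds summed over its 6 transcripts were 4.59 to 9.70 and 0.38 to 2.97 FPKM. Single transcripts of Pparg went from 4.69 to 0.00, from 2.17 to 0.96 and from 0.00 to 0.43 FPKM, and the others were at 0.00 in both. Of the stromal markers, Ly6a (530 and 841 FPKM in the floxed and deficient library), Col1a2 (205 and 255 FPKM) and Cxcl12 (60.4 and 318 FPKM) were high in both, while Lepr, Thy1 and Eng were under 1 FPKM in both. Alcam (8.80 and 1.98 FPKM), Kitl (22.6 and 12.6 FPKM) and Nt5e (1.86 and 1.01 FPKM, with overlapping bounds) were lower in the deficient library. Pdgfra (1.37 and 6.82 FPKM) and Pdgfrb (21.8 and 74.0 FPKM) were higher there. Relative to the median locus, 3 of 12 kept stromal markers were at least 2-fold lower and 1 higher, with a median of -0.55. Of all kept loci 11.8% were lower and 10.3% higher on that scale. As deposited 1 marker was at least 2-fold lower and 3 higher, beside 4.73% and 41.9% of all kept loci. The marker median as deposited was 0.31, and 9 of the 12 were above 0. All 15 summed to 1140 FPKM in the floxed and 1847 FPKM in the deficient library.

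Itm2a carried the difference in the family. It lies on chromosome X from 104592534 to 104598699 (mm9), on the minus strand. Its level was 556 FPKM in floxed cells, with deposited bounds of 543 and 569, and 1.80 FPKM in deficient cells, with bounds of 1.06 and 2.53. The bounds are far from overlapping, and the gene passed from rank 179 of the kept loci in the floxed library to rank 8734 in the deficient library. Behind these values stood 7200 fragments in the floxed and 24 fragments in the deficient library. Scaled to the library totals, the level was 310-fold higher in the floxed library, with an exact 95% binomial interval of 208- to 484-fold that covers counting error only and compares these libraries, not the genotypes. The relative log2 fold was -8.49 (-7.64 as deposited), the third lowest of the kept loci. Of all kept loci 11.8% were at least 2-fold lower on the relative scale and 4.73% as deposited, and 13 were at least 100-fold lower on the relative scale. As these values chose the member, nothing is read from its place among them. In bulk RNA, fewer cells that express a gene and less of its RNA per cell cannot be told apart.

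Itm2b was the member with nearly the same FPKM in both libraries. It lies on chromosome 14 from 73762039 to 73785078 (mm9), on the minus strand. Its level was 41.4 FPKM in floxed cells (bounds 38.0 to 44.8) and 39.9 FPKM in deficient cells (36.6 to 43.2). The bounds overlap, with 588 fragments in the floxed and 585 in the deficient library. The ratio of deficient to floxed was 0.962, with a counting interval of 0.857 to 1.08. Because the median locus was higher in the deficient library, the relative log2 fold was -0.91 against -0.05 as deposited. The relative value lies close to the 2-fold limit and passed it under some settings, at -1.12 with a filter of 5 FPKM, at -1.10 with upper-quartile scaling, at -1.02 with centred TPM and at -1.19 with a pseudocount of 0.1 FPKM. Among the 500 kept loci of nearest mean level the median log2 fold as deposited was 1.15, and relative to it Itm2b was at -1.20. Its level was high in both libraries, above 88.2% of kept loci in the floxed and above 81.0% in the deficient library.

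Itm2c was detected at a low level. It lies on chromosome 1 from 87791085 to 87805273 (mm9), on the plus strand. Its level was 0.30 FPKM in floxed cells (bounds 0.03 to 0.57) and 1.41 FPKM in deficient cells (0.83 to 1.98). The bounds do not overlap, but the values rest on 5 fragments in the floxed and 24 in the deficient library. Their ratio was 4.64 with a counting interval of 1.74 to 15.6. The pseudocount holds the log2 fold of so low a gene down, to 0.89 as deposited. Relative to the median locus it was 0.03, and its sign turned with a pseudocount of 5 FPKM (-0.16) and with a filter of 5 FPKM (-0.19). Itm2c passed the filter on low values only through the deficient library, where it was higher. Of all kept loci 10.3% were at least 2-fold higher on the relative scale and 41.9% as deposited.

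**Figure D2:**
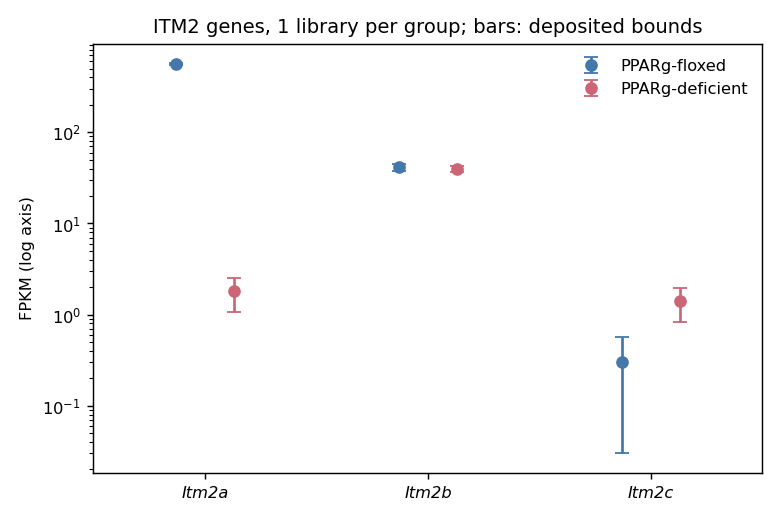
FPKM of the 3 ITM2 genes on a log axis in the PPARg-floxed and the PPARg-deficient library, 1 library each. Bars are the deposited bounds within a library. Itm2a goes from 556 to 1.80 FPKM, Itm2b is at 41.4 and 39.9 FPKM with overlapping bounds, and Itm2c is at 0.30 and 1.41 FPKM.

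The order of the members differed between the libraries. In the floxed library Itm2a was 13.4 times the level of Itm2b, and Itm2b 136 times that of Itm2c, with no overlap of bounds between neighbours. In the deficient library Itm2b came first, at 22.2 times the level of Itm2a. Itm2a and Itm2c followed with overlapping bounds (1.80 and 1.41 FPKM), so their order there is not set. The family summed to 598 FPKM in the floxed and 43.1 FPKM in the deficient library. Itm2a made up 93.0% of that sum in the floxed library and 4.2% in the deficient library, while Itm2b made up 6.9% and 92.6%.

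The loci most like each member were sought among 8266 named protein-coding kept loci, by the distance between log2(FPKM + 1) values over the 2 libraries. With only 2 libraries such a likeness is a like pair of levels, and it holds no spread. For Itm2a the 5 nearest were Ifit1 (329 and 2.35 FPKM, distance 0.80), Usp18 (401 and 0.68 FPKM, 0.87), Mgst1 (227 and 2.75 FPKM, 1.36), Hp (212 and 1.12 FPKM, 1.44) and Ldhb (822 and 7.15 FPKM, 1.64). Ifit1 and Usp18 are interferon-induced genes, Mgst1 encodes a microsomal glutathione transferase, Hp encodes haptoglobin and Ldhb a lactate dehydrogenase subunit. Even the nearest of them was farther from Itm2a than the fifth nearest from the other members. The distance is computed from the levels already known for Itm2a, so nothing is read from it. Of 702 loci with at least 100 FPKM in the floxed library, 12 were under 5 FPKM in the deficient library, Itm2a among them.

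For Itm2b the 5 nearest lay within 0.12, because many loci share its levels. They were Tmem60 (42.6 and 39.7 FPKM), Pxmp4 (42.9 and 40.2 FPKM), Samhd1 (41.0 and 38.1 FPKM), Gchfr (38.6 and 41.3 FPKM) and Cnpy4 (44.6 and 41.4 FPKM). Samhd1 encodes a dNTP hydrolase and Pxmp4 a peroxisomal membrane protein. For Itm2c the nearest were Zbed5 (0.31 and 1.42 FPKM), Zfp551 (0.31 and 1.37 FPKM), Arf5 (0.30 and 1.47 FPKM), H2afy2 (0.31 and 1.35 FPKM) and Kat2a (0.27 and 1.39 FPKM), all within 0.04. Kat2a encodes a histone acetyltransferase, Arf5 a small GTPase of membrane traffic and H2afy2 a macroH2A histone.

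**Figure D3:**
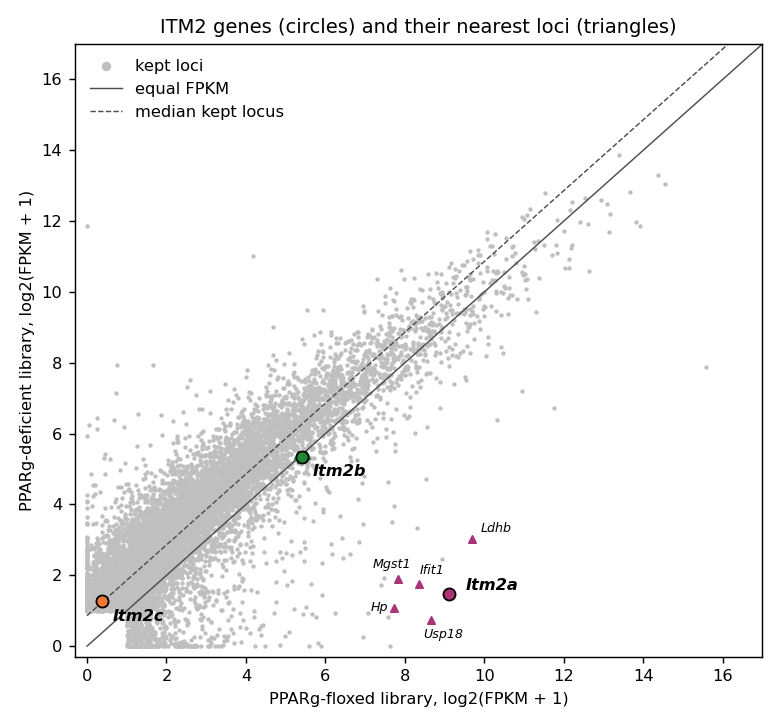
Level of each of 10765 kept loci (grey), as log2(FPKM + 1), in the PPARg-floxed (horizontal) and PPARg-deficient library (vertical). The solid line marks equal FPKM and the dashed line the median locus, 0.86 higher in the deficient library. Itm2b and Itm2c lie in the main cloud, and Itm2a lies far below it beside Ifit1, Usp18, Mgst1, Hp and Ldhb (triangles).

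No signal was listed for 7 other BRICHOS genes, although a listed 0 in files of this kind can be a failed estimate. Cnmd and Tnmd, which encode the cartilage and tendon proteins chondromodulin and tenomodulin, were listed at 0 in both libraries. Sftpc, the surfactant protein C gene, the gastrokine genes Gkn1, Gkn2 and Gkn3, and Bricd5 were likewise listed at 0 in both. For Bricd5 the upper bounds were 0.28 and 0.27 FPKM. Among all BRICHOS genes examined, the ITM2 genes were thus those with signal here.

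Proteases that process ITM2 proteins, the amyloid precursor protein family and the secretases that cut it formed a list of 22 genes. All 22 were matched and 16 were kept, 3 of them through the deficient library alone. Relative to the median locus 2 of 16 were at least 2-fold lower and 0 higher, beside 11.8% and 10.3% of all kept loci. As deposited 0 were lower and 5 higher, beside 4.73% and 41.9% of all kept loci. Of the 5, Pcsk6 and Aph1a passed the filter only through the deficient library. The median of the kept members was -0.14 relative to the median of all kept loci, and 0.71 as deposited against 0.86 for all kept loci.

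The convertase gene Furin was near 0, at 0.07 and 0.10 FPKM in the floxed and deficient library, with bounds that reach 0. Its relative Pcsk7 was at 3.97 and 4.94 FPKM (relative log2 fold -0.60), and Pcsk6 reached 2.15 FPKM in deficient cells from a listed 0 in floxed cells. Adam10, which sheds the BRICHOS domain of BRI2, was at 3.75 and 6.79 FPKM (-0.14), and Adam17, a related sheddase, at 3.75 and 11.3 FPKM (0.52). Of the signal peptide peptidase-like genes Sppl2a was at 10.4 and 17.7 FPKM (-0.14) and Sppl3 at 1.91 and 4.19 FPKM (-0.02). Sppl2b itself was listed at 0 in floxed cells, against 0.44 FPKM in deficient cells. The convertase, ADAM and signal peptide peptidase-like genes that reached 1 FPKM in both libraries (Pcsk7, Adam10, Adam17, Sppl2a and Sppl3) thus lay within 2-fold of the median locus.

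App, the amyloid precursor protein gene, was at 7.93 and 15.9 FPKM (0.06). Its relative Aplp2 was at 18.7 and 11.9 FPKM (-1.47) and the beta-secretase gene Bace1 at 4.51 and 3.28 FPKM (-1.22). Aplp2 and Bace1 were the 2 kept genes of the list at least 2-fold below the median locus, and neither was so as deposited (-0.61 and -0.36). Aplp1, at 0.55 FPKM in floxed cells and listed at 0 in deficient cells, and Aph1c, at 0.48 and 0.34 FPKM, were under the filter on low values. Among gamma-secretase genes Ncstn, which encodes nicastrin, was the highest, at 103 and 101 FPKM (-0.88). Psen2 was at 0.37 and 1.13 FPKM (-0.22) and Psenen at 14.7 and 38.2 FPKM (0.46). Aph1a was at 0.57 and 2.72 FPKM (0.38) and Aph1b at 1.03 and 2.21 FPKM (-0.20). Ide, the gene of an enzyme that degrades amyloid peptides, was at 2.04 and 3.62 FPKM (-0.25).

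**Figure D4:**
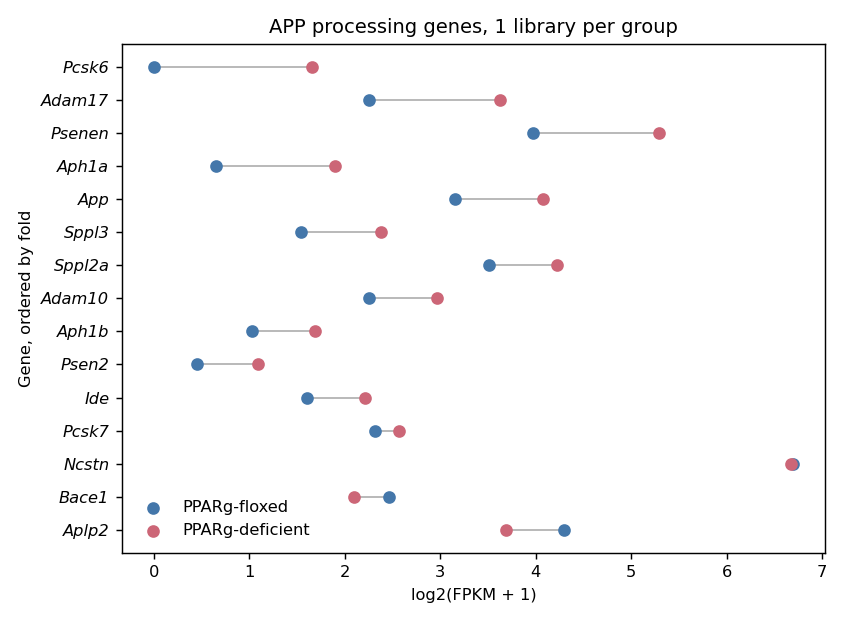
Levels of 15 of the 16 kept APP processing genes as log2(FPKM + 1) in the PPARg-floxed and PPARg-deficient library, ordered by fold. As deposited 12 of these 15 were higher in the deficient library, beside a median locus that was 0.86 higher. Aplp2, Bace1 and Ncstn were not.

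Markers of cell types in which Itm2a is known were examined beside its level. Of 7 T cell and thymocyte markers 6 were listed at 0 in both libraries, Ptprc, Cd3e and Cd4 among them, and Lck was at 0.53 and 0.17 FPKM. Of 7 skeletal muscle markers Myod1, Myog, Myf5 and Pax7 were listed at 0 in both, with Mylpf at 1.11 and 2.52 FPKM, Acta1 at 0.09 and 2.09 FPKM and Des at 0.06 FPKM in the floxed library. Of the 5 endothelial markers matched of 6, none reached 1 FPKM, and the list summed to 0.02 and 0.26 FPKM. The part of these cell types in the level of Itm2a was not tested.

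Of 7 chondrocyte markers Acan, Col9a1, Col11a2 and Comp were listed at 0 in both libraries, Col2a1 was at 0.07 FPKM in the floxed library, Matn3 was listed at 0 in floxed cells and at 1.79 FPKM in deficient cells, and Sox9 was at 4.25 and 2.76 FPKM. Some markers of fat and bone cells were lower in the deficient library. Adipoq was at 9.87 and 0.10 FPKM. Fabp4 was at 17.6 and 12.7 FPKM with overlapping bounds, while Plin1 and Lep were listed at 0 in both. The 6 adipocyte markers summed to 27.9 and 12.9 FPKM. Ibsp measured 7.56 FPKM in floxed cells and was listed at 0 in deficient cells, Alpl was at 7.49 and 0.14 FPKM, and Dmp1 was at 0 in both, so the 3 of 5 osteoblast markers that were matched summed to 15.1 and 0.14 FPKM. Of 2 kept adipocyte markers 2 were at least 2-fold lower relative to the median locus and 1 as deposited. Of 2 kept osteoblast markers 2 were lower on both scales. Beside them stand 11.8% of all kept loci on the relative scale and 4.73% as deposited. The part of these cell types in the level of Itm2a was likewise not tested. The macrophage gene Lyz2 measured 0.26 and 19.5 FPKM and Cd68 1.56 and 2.10 FPKM, while Adgre1 and Itgam were listed at 0 in both. Of 6 markers of neurons and glia, S100b measured 3.41 and 0.22 FPKM and Tubb3 1.02 and 1.76 FPKM. Snap25 and Gfap were listed at 0 in both. Syt1 (0.02 FPKM) and Mbp (0.07 FPKM) were near 0 in the floxed library and listed at 0 in the deficient library.

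The promoters of the 3 genes are shown because the targeted gene encodes a DNA-binding receptor. Binding there was not measured. They are the 250 bases before the transcript start in RefSeq on GRCm38.p6, a later build than that of the files. The gene spans in RefSeq and in the files have the same length for Itm2a and Itm2c and differ by 24 nt for Itm2b. Each is written 5′ to 3′ on the strand of the gene, with matches to a searched motif in capitals.
Itm2a, chrX:107403361-107403610, minus strand: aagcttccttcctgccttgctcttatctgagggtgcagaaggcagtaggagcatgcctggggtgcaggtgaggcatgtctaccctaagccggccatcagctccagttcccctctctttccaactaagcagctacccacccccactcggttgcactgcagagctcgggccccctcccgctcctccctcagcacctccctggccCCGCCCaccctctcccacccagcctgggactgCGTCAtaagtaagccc
Itm2b, chr14:73385290-73385539, minus strand: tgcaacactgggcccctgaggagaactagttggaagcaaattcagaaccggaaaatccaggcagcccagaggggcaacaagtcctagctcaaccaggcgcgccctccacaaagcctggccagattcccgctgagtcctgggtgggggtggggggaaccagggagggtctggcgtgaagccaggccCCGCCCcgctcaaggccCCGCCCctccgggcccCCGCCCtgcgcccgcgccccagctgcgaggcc
Itm2c, chr1:85894260-85894509, plus strand: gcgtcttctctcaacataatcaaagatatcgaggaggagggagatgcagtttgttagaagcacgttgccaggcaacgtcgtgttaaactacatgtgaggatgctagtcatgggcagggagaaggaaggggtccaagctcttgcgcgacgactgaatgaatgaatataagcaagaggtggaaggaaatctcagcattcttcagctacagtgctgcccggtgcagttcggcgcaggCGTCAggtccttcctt
The motifs, searched on both strands, were the GC box (GGGCGG), the TATA box (TATAAA), the CCAAT box (CCAAT), the cyclic AMP response element (TGACGTCA) and its core (TGACG), the nuclear receptor core (AGGTCA) and the DR1 repeat bound by PPARg with RXR, which is 2 copies of that core with 1 base (N) between them. The cyclic AMP core is part of the full element, and the receptor core is part of the repeat. The GC box occurred 3 times in Itm2b, 1 time in Itm2a and 0 times in Itm2c, and 32.7% of 32841 promoter windows of this length held it. The cyclic AMP core occurred once each in Itm2a and Itm2c, in both from -16 to -12 relative to the start, and 17.8% of windows held it. The TATA box (12.4% of windows), the CCAAT box (33.9%), the full response element (1.55%), the receptor core (14%) and the DR1 repeat (0.0335%) had no match in these windows, which says only that these letters are not there. The ratio of observed to expected CpG was 0.27 in Itm2a, 0.47 in Itm2b and 0.77 in Itm2c, above 38.7%, 57.9% and 78.9% of windows.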

How the data were processed

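RNA of 2 libraries, 1 PPARg-floxed and 1 PPARg-deficient, was analysed, grouped by the genotype label. The deposited files hold FPKM per transcript with bounds and coverage inside an attribute field with other text, per the file headers and attribute names. The submitters' processing notes name the build mm9 and, in no stated role, Cuffdiff 2.0.2, Cufflinks 2.0.2 and TopHat2 2.0.5. Which annotation and filters were used, and whether strand was kept, is not stated there. As FPKM divides by the total of its library, a few abundant genes can shift all the rest.

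The files list 45543 transcripts in 25707 loci without symbols. Loci were named by matching, in order, their intron and internal exon lengths to GENCODE M21 transcripts of that chromosome and strand, and all 3 ITM2 genes matched by the whole chain. A locus matching several genes was split by gene (136 loci). Transcript FPKM values were added up per gene. No coordinate was converted. As each group held 1 library, there was no test and no p-value, and a gene was called at 2-fold by size alone.

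A fragment number was computed from the bounds of each single-transcript locus with a lower bound above 0. It was whole within 0.001 in 71.4% of 4674 such loci in the floxed and 71.5% of 5525 in the deficient library. Library totals came from a line of these numbers on transcript length. This step was added after the files were seen. The steps were tested on simulated data.

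The members and lists were chosen with earlier results of these data known. Named genes are Pparg, the ITM2 genes, the BRICHOS and APP processing lists, the 5 loci nearest to each member in level, the nearest 2 named loci on each side, and up to 3 of the highest markers of each list. Values of 2 of these genes are not reported here, while the list counts hold all members. Other markers named at 0 or near it were added after their values were seen. The stromal markers Alcam, Kitl, Nt5e, Pdgfra and Pdgfrb lie outside this rule and were also named with their values known. RefSeq promoters matched 3 of 3 members. Python 3.11.15, numpy 2.4.6, scipy 1.17.1 and matplotlib 3.10.9 were used.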

Additional observations from a re-analysis of the deposited data

How the results depend on the processing

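With 1 library per group no replicate was left out, and no depth beyond the fragment numbers bears on the spread between cultures. No paired analysis was possible because each group holds 1 library. The range that the deposited bounds allow was used as the counting error of a fold.

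The log2 fold of Itm2a was -8.49 on the relative scale and lay between -9.33 and -6.80 over 15 alternatives, some of them not centred. It left the range of its bounds (-8.97 to -8.12) with a pseudocount of 0.1 FPKM (-9.33) or 5 FPKM (-6.80) and with no filter (-7.69). It was also outside that range as deposited (-7.64) and with uncentred TPM (-7.92). Those 2 values are not centred, so they are not on the relative scale of the bounds. Of 2 alternatives chosen after seeing the data, the fragment ratio, with no pseudocount and not centred, gave -8.28. That value is not on the relative scale of these bounds. Centring on the 500 loci of nearest mean level gave -8.81.

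Itm2b was at -0.91, and at -1.19 and -0.48 with these pseudocounts, -0.10 with no filter and -0.05 as deposited. It was at -0.16 with uncentred TPM, -0.06 by fragments without centring and -1.20 centred on loci of like level. Itm2c was at 0.03, and at 0.77 with a pseudocount of 0.1 FPKM, 0.83 with no filter and 0.89 as deposited. It was at 1.05 with uncentred TPM and 2.21 by fragments, without centring or pseudocount. Pparg was at -2.58, and at -1.33 with a pseudocount of 5 FPKM.

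The share of kept loci at least 2-fold lower was 11.8%, and 4.03% with a pseudocount of 5 FPKM, 2.19% with no filter, 4.73% as deposited and 5.6% with uncentred TPM. It was 20.5% at 1.5-fold and 4% at 4-fold. The share at least 2-fold higher was 10.3%, and 16% with a pseudocount of 0.1 FPKM, 17% with no filter, 41.9% as deposited and 42.5% with uncentred TPM. It was 21.9% at 1.5-fold and 1.52% at 4-fold.

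Of the APP processing list 2 genes were lower, and 0 with a pseudocount of 5 FPKM, with no filter, as deposited, with uncentred TPM and at 4-fold, against 4 at 1.5-fold. None was higher, and 1 was with either pseudocount, upper-quartile scaling or centred TPM, 2 at 1.5-fold, and 5 with no filter, as deposited and with uncentred TPM. The cause of these shifts was not tested, beyond the centring and the pseudocount themselves.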

Other observations

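The neighbours of the ITM2 genes on their chromosomes, in the coordinates of the files, were looked at beside them. On chromosome X, Gpr174, 100.4 kb from Itm2a, and Tbx22, 264.6 kb from it on the other side, were at 0.02 FPKM in the floxed library and listed at 0 in the deficient library. P2ry10b, 223.5 kb away, was at 10.1 and 14.2 FPKM (relative log2 fold -0.40), and Tent5d was listed at 0 in both. The level of Itm2a in the floxed library was 556 FPKM. Gpr174, Tbx22 and Tent5d were under the filter on low values, so no fold is given for them. The 382 kept loci of chromosome X had a median relative log2 fold of 0.01.

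Itm2b lies 36.4 kb from Rb1, the retinoblastoma gene, which was at 0.04 and 0.43 FPKM although Itm2b was at 41.4 and 39.9 FPKM. Other neighbours were Rcbtb2 (4.26 and 21.8 FPKM, relative log2 fold 1.26) and Med4 of the Mediator complex (19.2 and 56.5 FPKM, 0.65). Beside Itm2c, Cab39 was at 2.21 and 3.33 FPKM (-0.43), the proteasome gene Psmd1 at 28.4 and 74.9 FPKM (0.51) and Spata3 was listed at 0 in both. Sp100, an interferon-induced nuclear body gene 184.6 kb from Itm2c, was at 4.47 and 0.05 FPKM (-3.23).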
